A study of Homo sapiens with 3 samples.

Results

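Nucleotide excision repair cuts bulky lesions, such as those left by ultraviolet light, out of DNA as a short single-stranded piece and fills the gap. Lesions are found either anywhere in the genome, by the XPC and DDB complexes, or at stalled RNA polymerase II, by CSB and CSA. Both routes recruit TFIIH, whose helicases XPB and XPD open the DNA around the lesion, XPA checks the damage, and the nucleases XPG and XPF-ERCC1 cut on either side. TFIIH also opens promoters for RNA polymerase II, so its helicases can be present at the starts of the genes that encode their own repair partners.

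The genes examined here were 10 nucleotide excision repair genes that encode no TFIIH subunit: XPC, RAD23B, DDB1, DDB2, ERCC6, ERCC8, XPA, ERCC5, ERCC4 and ERCC1. They were chosen by function, and a peak was assigned to a gene when its summit lay within 2 kb of a stated hg19 gene start. This gave 6 XPB peaks of 21555 in the list and 7 XPD peaks of 14570. The peaks came from chromatin immunoprecipitation and sequencing (ChIP-seq) in HT1080, an established human fibrosarcoma cell line, with rabbit polyclonal antibodies to XPB or XPD. No treatment or DNA damage is named in the labels. There was 1 library per antibody, from a single crosslinked chromatin pool that also gave an input library of unenriched DNA, which was not analysed here. Each peak has a summit height, the number of overlapping fragments at its highest point, and a score, read as the caller's p-value on a -10 log10 scale. The files do not give how many reads each library had, there are no replicates, and no p-value can be given for any difference between the antibodies. The protocol text common to all samples names an antibody to CSB, the product of ERCC6. The antibody fields of the samples name XPB and XPD and were followed.

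Most of these genes had a peak at their start. XPD summits lay near 7 of the 10 starts and XPB summits near 5, and the 5 genes with XPB (XPC, DDB2, ERCC6, ERCC5 and ERCC1) all had XPD as well. DDB1 and ERCC8 had XPD without XPB, RAD23B, XPA and ERCC4 had neither, and 0 genes had XPB without XPD. For comparison, 2.71% of all positions between the first and last summit of the chromosomes lay within 2 kb of an XPB summit and 1.86% within 2 kb of an XPD summit. In the stretches of 100 kb to either side of the 10 starts these shares were 8.13% and 6.12%, which includes the peaks at the starts themselves. Positions are not gene starts, and the share of all gene starts that carry a peak was not measured, since no hg19 annotation was used. The counts therefore do not show that repair genes differ from other genes.

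The genes counted did not change with the window between 1 and 10 kb, although the peaks did: the XPB peak of ERCC1 at 1688 bp is lost at 1 kb, and a pair at ERCC6 is gained at 10 kb. The farthest of the nearest summits inside the window was the XPD summit of ERCC6, at 860 bp, and the closest outside it was the XPB summit of DDB1, at 15488 bp. With windows of 1, 5 or 10 kb the counts stayed at 5 and 7 genes, while the share of positions within reach of an XPB summit went from 1.41% at 1 kb to 10.9% at 10 kb. By repair step, XPB and XPD summits lay at 2 and 3 of the 4 damage recognition genes, at 1 and 2 of the 2 transcription-coupled repair genes, at 0 and 0 of the 1 verification gene and at 2 and 2 of the 3 incision genes.

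**Figure D1:**
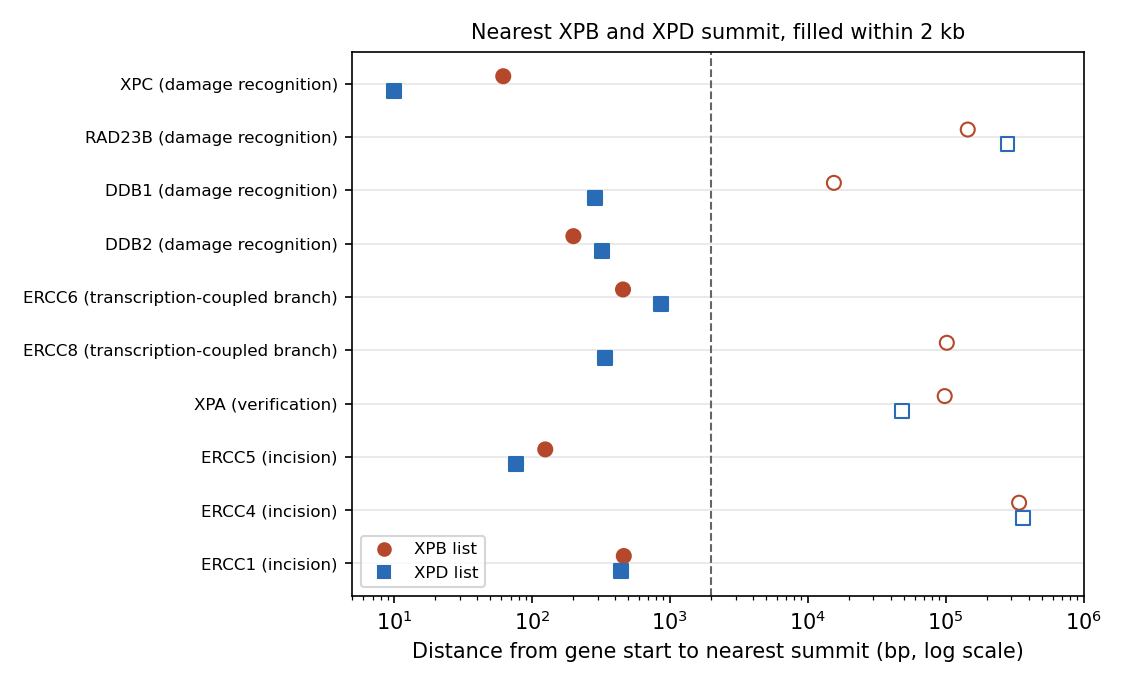
Distance in bp, on a log scale, from each gene start to the nearest XPB summit (circles) and XPD summit (squares); filled symbols lie within 2 kb, marked by the dashed line. The 12 filled symbols sit between 10 and 860 bp, and the 8 open symbols between 15488 and 365856 bp.

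The damage recognition genes came first in the pathway and covered every outcome. XPC encodes the protein that senses the distorted helix in global repair. Its XPB peak (hg19 chr3:14219954-14220593) had a summit 62 bp upstream of the start, 10 fragments high, with a score of 176.5. Its XPD peak (chr3:14219881-14220587) had a summit 10 bp upstream, 18 fragments high, with a score of 213.7. These were the smallest distances to a start in either list, and the summits lay 52 bp apart. The XPB peak was weak for its list, with 38.5% of XPB peaks scoring lower, against 68.5% of XPD peaks below the XPD score.

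DDB2 (XPE) encodes the subunit of the UV-damage binding complex that contacts the lesion. Its XPB peak (chr11:47236374-47237333) had a summit 200 bp downstream of the start, with 10 fragments and a score of 293.3. Its XPD peak (chr11:47236410-47237322) had a summit 320 bp downstream, with 12 fragments and a score of 242.6. Among the genes with a summit inside the window, DDB2 was the gene whose nearest summits fell on the transcribed side. Its XPB score stood above 84.8% of the list although its summit was higher than only 25.04% of it.

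DDB1 encodes the partner of DDB2, which also links it to the CUL4 ubiquitin ligase. An XPD peak covered its start (chr11:61100405-61101492), with a summit 288 bp upstream, 14 fragments high, and a score of 221.0. The XPB list had no peak there, and its nearest summit, 7 fragments high with a score of 165.2, was 15488 bp upstream. RAD23B (HR23B) encodes the protein that stabilises XPC. It had no summit of either list within 100 kb: the nearest XPB summit was 144719 bp away and the nearest XPD summit 281111 bp away, with 7 and 9 fragments. Of all positions, only 45.2% lay within 100 kb of an XPB summit and 37.7% within 100 kb of an XPD summit. XPC and its partner RAD23B, and likewise DDB2 and its partner DDB1, thus differed in which lists marked their starts.

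The transcription-coupled genes ERCC6 and ERCC8 encode CSB, a remodelling ATPase that acts at the stalled polymerase, and CSA, a subunit of a ubiquitin ligase. At ERCC6 the XPB peak (chr10:50747045-50748003) had a summit 458 bp upstream, with 10 fragments and a score of 197.0. The XPD peak (chr10:50746984-50748198) had a summit 860 bp upstream, with 12 fragments and a score of 293.4. The summits were 402 bp apart, the widest gap among the 5 genes with both, although the XPB interval lay wholly inside the XPD interval. At ERCC8 an XPD peak (chr5:60240924-60242168) had a summit 338 bp upstream, with 13 fragments and a score of 203.5. It was the XPD peak among the 7 whose interval did not reach the start itself, and the nearest XPB summit was 102062 bp away.

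XPA, the scaffold that verifies damage together with TFIIH, had no summit near its start. The nearest XPD summit, 21 fragments high, was 48554 bp away on the transcribed side, and the nearest XPB summit, 9 fragments high, 98510 bp away on the same side. The distance to that XPD summit exceeds the length of XPA in the RefSeq table (42943 bp, GRCh38.p14).

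The incision genes held the strongest peaks of the set as well as a gene with none. ERCC1 encodes the non-catalytic partner of the XPF nuclease. Its XPB peak (chr19:45926476-45927887) had a summit 464 bp upstream, 35 fragments high, with a score of 884.9, which ranked 181 among 21555. Its XPD peak (chr19:45926754-45928052) had a summit 446 bp upstream, 29 fragments high, with a score of 346.1, which ranked 1145 among 14570. The summits were 18 bp apart. A further XPB peak (chr19:45925083-45925731), 1688 bp downstream of the start, had 11 fragments, a score of 214.4 and no XPD peak over it. ERCC5 encodes XPG, the nuclease that cuts on the 3′ side of the lesion. Its XPB summit lay 125 bp upstream, with 19 fragments and a score of 309.9 (chr13:103497765-103498683), and its XPD summit 77 bp upstream, with 14 fragments and a score of 281.2 (chr13:103497751-103499015), 48 bp apart. ERCC4 encodes XPF, the nuclease that cuts on the 5′ side as a heterodimer with ERCC1. It was the most isolated of the 10 genes, with the nearest XPB summit 341107 bp and the nearest XPD summit 365856 bp from its start. The genes for the 2 subunits of this nuclease were therefore at opposite ends of the set.

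**Figure D2:**
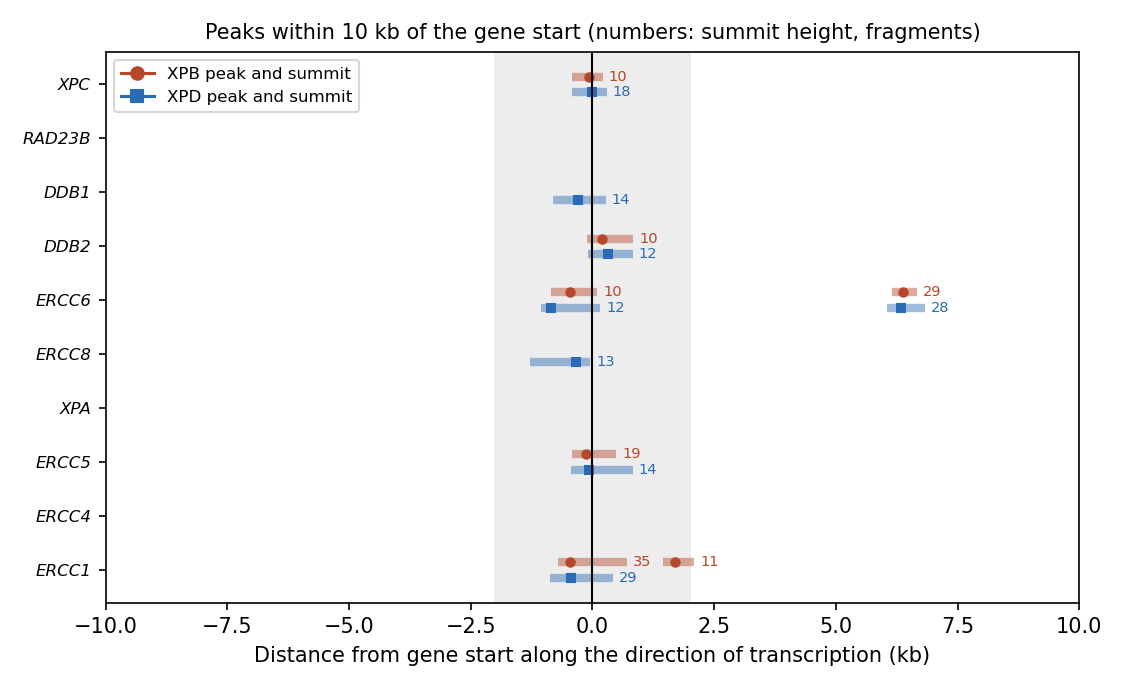
Peaks within 10 kb of each gene start, drawn along the direction of transcription in kb, with bars for the intervals, symbols for the summits, numbers for the summit height in fragments, and the 2 kb window in grey. Summits within the window lie mostly upstream of the stated hg19 start, and the taller ERCC6 pair lies 6.34 to 6.38 kb into the gene.

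Summits lay mostly on the upstream side of the stated starts, and the share upstream over all gene starts was not measured. At DDB1 and ERCC8 that side also holds the start of a neighbour, described below. Of the nearest summits within 2 kb, 4 of 5 for XPB and 6 of 7 for XPD were upstream of the start, with DDB2 the exception in both lists. The median distance was 200 bp for XPB (62 to 464) and 320 bp for XPD (10 to 860). The peak interval covered the start at all 5 genes with XPB and at 6 of the 7 with XPD. Fragments of 400 to 700 bp were sequenced, and distances below that size place a summit only loosely. The RefSeq promoter table (GRCh38.p14) lists 1 start for 6 of the genes but 2 for DDB2 (520 bp apart), 2 for ERCC6 (417 bp apart) and 3 each for RAD23B and ERCC1, the closest ERCC1 pair being 389 bp apart. Upstream and downstream at DDB2, ERCC6 and ERCC1 therefore hold for the stated hg19 start and may differ for another. The stated hg19 starts were not matched to the RefSeq starts at any gene. Where a summit lay close to the stated start, as at XPC and ERCC5, its side may also differ for the RefSeq start.

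Promoter sequence was compared next, because 4 of the 10 genes have a neighbour that starts within 1000 bp in the opposite direction. The share of all genes with such a neighbour was not measured, so this count does not set repair genes apart. In the RefSeq table the protein-coding genes LSM3, TKFC and NDUFAF2 start in the opposite direction 216, 123 and 135 bp upstream of XPC, DDB1 and ERCC8, and the lncRNA LOC124903647 starts 76 bp upstream of ERCC4. The XPD summits of DDB1 and ERCC8 lay farther upstream in hg19 (288 and 338 bp) than these neighbours start in GRCh38, and the spacing in hg19 was not checked. The XPC summits lay 62 and 10 bp upstream, in peaks 640 and 707 bp wide. The peaks at XPC, DDB1 and ERCC8 therefore cannot be told apart from peaks of LSM3, TKFC and NDUFAF2. The stretches below run 5′ to 3′ on the gene's own strand up to the base before the start, are from RefSeq (GRCh38.p14), and stop at a neighbour's start or at 250 bases. They are shown for the 6 genes with a single listed start, 4 with a peak and 2 without. Capitals mark GGGCGG (the GC box), CCAAT and CCGGAA (the core of ETS factor sites) on either strand.
XPC, both lists (chr3:14178602-14178816, minus strand): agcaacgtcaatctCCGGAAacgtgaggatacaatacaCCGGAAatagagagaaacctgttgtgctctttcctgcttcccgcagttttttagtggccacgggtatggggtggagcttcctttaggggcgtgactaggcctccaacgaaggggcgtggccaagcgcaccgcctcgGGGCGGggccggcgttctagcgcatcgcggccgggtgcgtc
ERCC5, both lists (chr13:102845782-102846031, plus strand): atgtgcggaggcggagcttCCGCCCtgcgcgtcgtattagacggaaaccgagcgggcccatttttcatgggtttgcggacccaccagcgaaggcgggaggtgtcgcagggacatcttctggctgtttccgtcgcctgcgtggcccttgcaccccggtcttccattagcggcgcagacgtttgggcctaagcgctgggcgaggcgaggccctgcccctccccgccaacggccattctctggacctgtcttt
DDB1, XPD without XPB (chr11:61333106-61333227, minus strand): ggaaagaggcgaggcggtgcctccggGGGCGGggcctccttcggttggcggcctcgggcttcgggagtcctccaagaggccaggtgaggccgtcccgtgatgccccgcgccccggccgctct
ERCC8, XPD without XPB (chr5:60945071-60945204, minus strand): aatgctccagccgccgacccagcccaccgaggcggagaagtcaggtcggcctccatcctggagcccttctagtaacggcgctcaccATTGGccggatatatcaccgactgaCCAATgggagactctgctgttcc
XPA, neither list (chr9:97697341-97697590, minus strand): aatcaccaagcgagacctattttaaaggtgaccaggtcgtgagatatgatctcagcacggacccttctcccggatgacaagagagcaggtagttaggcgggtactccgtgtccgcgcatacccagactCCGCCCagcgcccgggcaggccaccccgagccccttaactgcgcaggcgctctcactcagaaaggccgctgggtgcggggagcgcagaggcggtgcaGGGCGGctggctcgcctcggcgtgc
ERCC4, neither list (chr16:13920079-13920153, plus strand): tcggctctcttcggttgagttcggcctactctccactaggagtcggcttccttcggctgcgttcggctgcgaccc

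The GC content of these stretches overlapped between genes with and without a peak. GC content of the printed stretches was 60.5% for XPC, 64.8% for ERCC5, 75.4% for DDB1 and 61.2% for ERCC8, against 64.4% for XPA and 62.7% for ERCC4. In the ERCC4 stretch the hexamer TCGGCT occurred 4 times in 75 bases, a repeat picked out after it was seen. All 10 genes matched the promoter table, with 16 promoters of 300 bases (250 before and 50 after the start). Their GC content ranged from 36.7% to 74.3% with a median of 63.0%, near the median of 62.3% over 22199 promoters of protein-coding genes. GGGCGG was in 10 of the 16, against 44.95% of all 35116 promoters and 56.3% of the protein-coding ones. Those promoters belonged to 9 of the 10 genes, a count for which no share over all genes was measured. CCAAT was in 4 of 16, against 34.6% of all and 34.7% of protein-coding promoters. CCGGAA was in 4 of 16, against 17.2% and 21.2%, and TATAAA in 0 of 16, against 11.5% and 9.47%. The palindromic NRF1 motif was in 1 of 16, at ERCC6, and in 1.24% of all promoters. A G-quadruplex pattern, 4 runs of GGG with 1 to 7 bases between them, was in 1 of 16, at RAD23B, which had no summit of either list near its start, against 24.9% of all and 30.3% of protein-coding promoters. Every motif was sought on both strands, matches of different motifs may overlap, and a match is a string of letters and no measured site. Many nearest summits lay beyond 250 bp upstream or 50 bp downstream of the stated hg19 start. XPD summits lay 288 bp upstream at DDB1, 338 at ERCC8, 446 at ERCC1 and 860 at ERCC6. XPB summits lay 458 bp upstream at ERCC6 and 464 at ERCC1, and the DDB2 summits 200 and 320 bp downstream. These motif counts therefore do not describe the sequence under all the peaks.

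In height, most of these peaks were ordinary for their lists, and their scores were above the middle. The list medians were 11 fragments for XPB and 13 for XPD. At the nearest summits XPB had 10 fragments at XPC, DDB2 and ERCC6, 19 at ERCC5 and 35 at ERCC1, so 2 of 5 exceeded the list median. XPD had 12 at DDB2 and ERCC6, 13 at ERCC8, 14 at DDB1 and ERCC5, 18 at XPC and 29 at ERCC1, so 4 of 7 exceeded it. Scores exceeded the list median (189.4 for XPB and 185.1 for XPD) at 4 of 5 genes for XPB, XPC being below, and at 7 of 7 for XPD. The 10% of peaks with the highest scores held 1 of the 5 and 1 of the 7, ERCC1 in both cases.

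**Figure D3:**
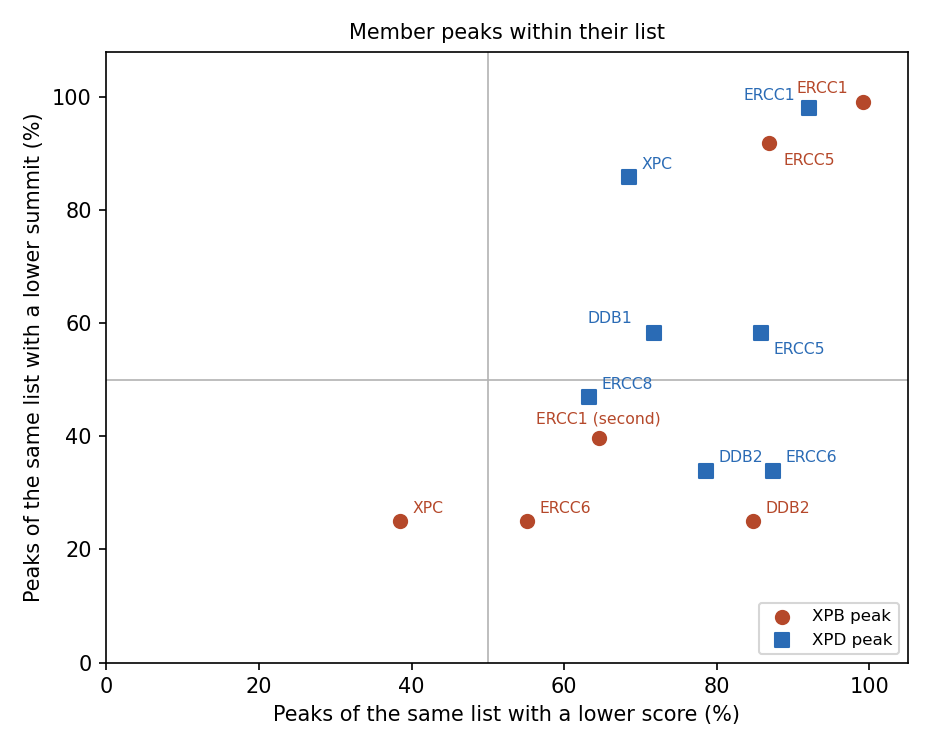
Each member peak placed by the percentage of its own list with a lower score (horizontal) and with a lower summit (vertical), XPB as circles and XPD as squares, with lines at 50%. The ERCC1 pair stands at the top right, above 92.1% of XPD and 99.2% of XPB scores, and the other points spread from 25.04% to 91.9% in height.

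Where both helicases were listed, their heights at single genes did not differ beyond counting error. Because depth is unknown, XPD height over XPB height, as a log2 ratio, was set relative to its median of 0.11 over the 5536 peak pairs in the lists that overlap each other best. It was 0.74 at XPC (exact 95% binomial interval -0.45 to 2.02), 0.16 at DDB2 (-1.18 to 1.53), 0.16 at ERCC6 (-1.18 to 1.53), -0.55 at ERCC5 (-1.66 to 0.53) and -0.38 at ERCC1 (-1.14 to 0.37). Every interval includes 0. Summed over the 5 genes, XPB had 84 fragments and XPD 85, a log2 ratio of -0.09. ERCC1 alone gave 35 of the XPB and 29 of the XPD fragments, and ratios of opposite sign cancel in the sum. The genes are not replicates, so the sum does not show equal heights at each gene. The intervals at single genes cover counting error alone, treat PCR copies as molecules, and leave room for differences of over 2-fold. Only genes listed for both helicases have a ratio, and the median too comes from peaks listed for both. Sites where either helicase was too weak to be listed, such as XPB at DDB1 and ERCC8, are thus left out in advance. The 5 summit separations (52, 120, 402, 48 and 18 bp, in the order of the genes above) straddled the median of 97.5 bp over all pairs.

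The genes with XPD alone were read against the lists as a whole. In the XPD list 43.7% of summits had an XPB summit within 2 kb, and 31.1% of XPB summits had an XPD summit within 2 kb. Among the members 5 of 7 genes with XPD also had XPB, and 5 of 5 genes with XPB also had XPD. The list shares count summits anywhere in the genome, while the member counts are of genes with a summit at the start. The share for peaks at all gene starts was not measured, so these counts do not show that the members differ. The XPD peaks of DDB1 and ERCC8 scored 221.0 and 203.5, and among the 1232 XPD summits with scores from 203.5 to 221.0, a band chosen after seeing these values, 44.3% had an XPB summit within 2 kb. An XPD peak of that score without XPB was thus common in these data. The lowest score listed was 150, so weaker enrichment of XPB at DDB1 and ERCC8, or of either helicase at RAD23B, XPA and ERCC4, was not detectable from the lists.

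Beyond the starts, ERCC6 carried taller peaks inside the gene than at its start. On the transcribed side, 6380 bp from the start, an XPB summit of 29 fragments (score 497.5, chr10:50740480-50740994) coincided within 38 bp with an XPD summit of 28 fragments (score 493.4, chr10:50740319-50741106). A further pair had 22 fragments in each list, with scores of 444.2 for XPB at 14381 bp and 436.4 for XPD at 14730 bp. A weaker pair near 74 kb had 10 and 14 fragments and scores of 161.3 and 151.2. All 3 pairs fell within the length that the RefSeq table gives for the gene (104658 bp, GRCh38.p14). By comparison, the summits at the ERCC6 start had 10 and 12 fragments.

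At the other members, the few peaks counted within the gene had no peak of the other list over them. Peaks without the other helicase nearby were common in the lists as a whole, by a measure unlike overlap. There, 31.1% of XPB summits and 43.7% of XPD summits had a summit of the other list within 2 kb. XPC held 1 XPB peak beyond 2 kb within its RefSeq length, 26115 bp from the start with 10 fragments, and no XPD peak. DDB1 held 1 XPD peak, at 22714 bp with 12 fragments, and no XPB peak. DDB2 held 1 XPB peak, at 18281 bp with 8 fragments, and no XPD peak. For ERCC1, whose listed starts span 28019 bp, only the 16195 bp from the last of them were counted as gene, and these held no peak of either list beyond 2 kb. The nearest beyond them on that side were 3 XPB peaks 17.3, 17.8 and 19.6 kb from the start, with 10, 13 and 8 fragments and no XPD peak over them. ERCC8, ERCC5, XPA, RAD23B and ERCC4 held none of either list.

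The surroundings of the genes also differed. Within 100 kb of the start ERCC1 had 14 XPB and 11 XPD summits, DDB2 9 and 7, XPC 7 and 3, ERCC6 6 and 5, DDB1 6 and 3, and ERCC5 3 and 1. ERCC8 had 0 and 1, the XPD summit at its start, XPA had 1 and 1, and RAD23B and ERCC4 had 0 and 0. Of these, 40 XPB and 25 XPD summits lay beyond 2 kb, and among those 14 peaks of each list overlapped a peak of the other. The whole lists held 5536 mutually best overlapping pairs among 21555 XPB and 14570 XPD peaks. By summits within 2 kb, a measure unlike overlap, 31.1% of XPB and 43.7% of XPD had a partner. Whether overlap near these genes differs from the lists was not tested. A tall shared pair near DDB2, 33906 bp on the transcribed side and beyond the RefSeq length of that gene, had 22 fragments for XPB (score 727.7) and 17 for XPD (score 487.4), with summits 13 bp apart. Near ERCC1, 54.8 kb upstream, another shared pair had 18 and 24 fragments with summits 1 bp apart. The first pair was taller than the peaks at the DDB2 start in both lists, and the second was lower than the peaks at the ERCC1 start in both.

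**Figure D4:**
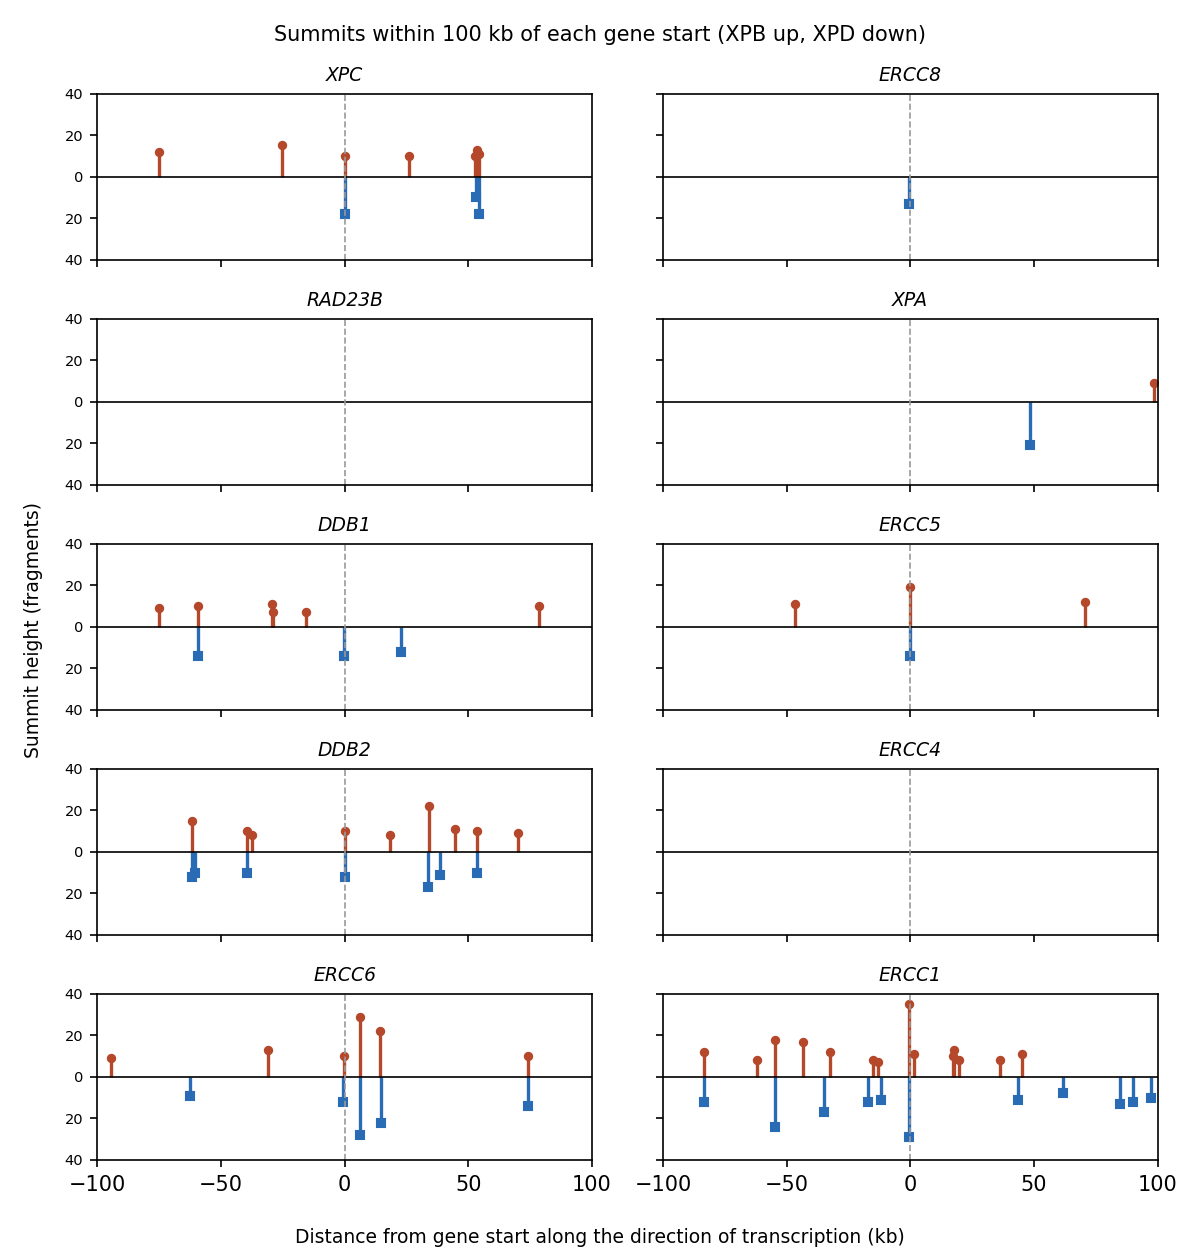
Summit heights in fragments within 100 kb of each gene start along the direction of transcription, XPB upward and XPD downward, with the start as a dashed line. RAD23B and ERCC4 are empty, ERCC8 and ERCC5 are nearly bare away from the start, and ERCC1 has 14 XPB and 11 XPD summits.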

How the data were processed

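The data were 2 deposited peak lists, 1 for the XPB ChIP and 1 for the XPD ChIP of HT1080 cells. Groups were taken from the antibody fields. Per the submitters' processing notes, the tools were Bowtie 0.12.7 for alignment and MACS 1.4 for peaks, and the build was hg19; the control and caller settings are not given in the sources used here. Each list was called on 1 library, without pooling. The deposited score is the authors' value per peak, read as -10 times log10 of the p-value from the usual MACS layout. The deposited signal is the authors' summit height in fragments, not scaled to depth. Peaks and heights are described only, with no test, as each antibody has 1 library.

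Intervals were converted to 1-based positions and joined to summits by peak name. Gene starts are hg19 positions stated with the gene list, and no hg19 annotation was used. All 10 genes are named. Strand, neighbours, lengths and promoters came from RefSeq tables of GRCh38.p14 by symbol, and no position was carried between builds. The planned placing of other repair genes, which needs hg19 annotation, was not run. The background is the share of positions within 2 kb of a summit, over the span from first to last summit of each chromosome. Lookup functions were tested on simulated data. The genes and measures were chosen with earlier results of these data known. Python 3.11.15, numpy 2.4.6, pandas 2.3.3, scipy 1.17.1 and matplotlib 3.10.9 were used.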

Additional observations from a re-analysis of the deposited data

How the results depend on the processing

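The number of genes with a summit near the start kept within 1.5 times the reported 5 for XPB, 7 for XPD and 5 for both with windows of 1, 5 or 10 kb, with the peak interval covering the start (5, 6 and 5) and with lists of equal length. Score thresholds moved it: at scores of at least 200 the counts were 3 for XPB and 3 for both, and at scores of at least 300 they were 2 for XPB, 1 for XPD and 1 for both. These thresholds remove peaks by construction. The share of positions within 2 kb of a summit, 2.71% for XPB and 1.86% for XPD, was 3.24% and 2.29% on the chromosomes that hold the genes and 8.13% and 6.12% within 100 kb of their starts. The summed height ratio (log2 -0.09) was 0.02 without centring and -0.05 when centred on pairs scoring at least 300. These settings change only the centring value, from 0.11 to none and to 0.07. The 10 values at single genes stayed inside their counting intervals, as a shift that small had to leave them. No paired analysis was possible because each antibody has 1 library. Since depth is unknown and no peak under a score of 150 is listed, absence from a list does not show absence of binding.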
